A study of Chrysanthemum x morifolium with 4 samples.

Results

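Of the 93837 unigenes in the table, 58 were low only in leaves of the chrysanthemum cultivar Jinba that had spent 24 h at 4 °C. A unigene is a transcript sequence assembled from the reads. The members were chosen by FPKM, the deposited count scaled to unigene length and to the total count of the library: the smallest value of the other 3 libraries had to be at least 5 FPKM and at least 4 times the acclimated value. The low acclimated level and the higher level elsewhere are therefore how the set was made and are described below without a test.

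The study had 4 leaf libraries, 1 per treatment, each from a mixture of 3 replicates of 20-day-old seedlings. The seedlings were raised in tissue culture under 16 h of light, at 25 °C by day and 22 °C by night, and then kept in pots for 3 days. Control plants stayed in normal conditions, acclimated plants had 24 h at 4 °C, acclimated and frozen plants had the same 24 h followed by 4 h at -4 °C, and directly frozen plants went straight to 4 h at -4 °C without acclimation. The spread between plants was not measured, so no comparison has a p-value, and every interval covers counting error only. A level set by the acclimation treatment and one particular to that single library cannot be told apart. Temperature also cannot be told apart from the length of treatment, which was 24 h, 28 h and 4 h in the 3 cold-treated groups. In whole leaves, less RNA per cell and fewer cells of a type cannot be told apart either. The files pair no identifier with a gene name or a sequence, so neither the tissue nor the members could be set against known genes, and the members are named by identifier.

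Cold acclimation is the process by which many plants, given low temperatures above freezing, become more tolerant of frost. In Arabidopsis it is driven in part by the CBF transcription factors, which switch on genes for protective proteins and sugar metabolism, while many transcripts for growth and photosynthesis decline. Plants also respond within hours to returning warmth or to a further drop in temperature, so a transcript that is low in acclimated leaves need not stay low at the next step.

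The members were of middling abundance outside acclimation, set against unigenes at 5 FPKM or more in the other 3 libraries, and were scarce after acclimation. Their median level was 13.9 FPKM in the control (range 5.05 to 245.5), 1.63 FPKM after acclimation (0.0632 to 34.4), 13.2 FPKM in leaves frozen after it (5.26 to 305.6), and 22.7 FPKM in directly frozen leaves (5.01 to 346.4). By control level, 20 members lay between 5 and 10 FPKM, 28 between 10 and 50 FPKM, 7 between 50 and 100 FPKM and 3 at 100 FPKM or more. In the acclimated library 13 members were under 1 FPKM and 7 were still at 5 FPKM or more, so the set was not uniformly silent there. Ranked by FPKM among all unigenes, the median member stood at place 8567 in the control, 25526 after acclimation, 9225 in leaves frozen after it, and 6133 in directly frozen leaves.

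**Figure D1:**
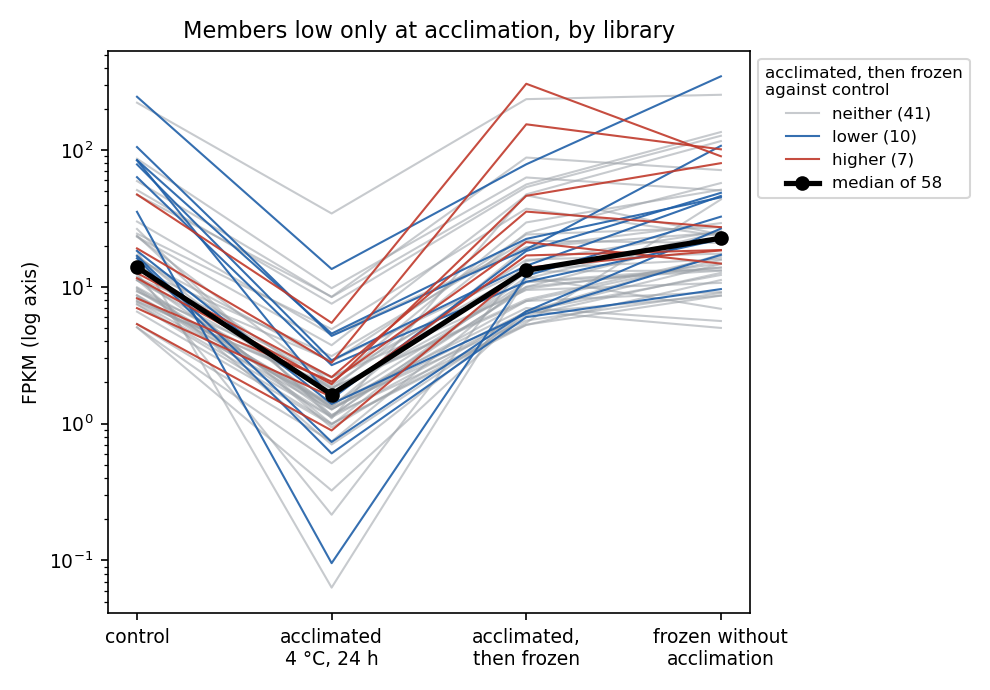
FPKM of each of the 58 members in the 4 libraries (vertical log axis), 1 line per member, coloured by whether the acclimated and frozen library was called higher (7), lower (10) or neither (41) against the control, with the median in black. The lines join treatments, not times, and every line has its lowest point at acclimation, as the choice of members requires, while the coloured lines part at the acclimated and frozen library.

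All members together held 0.234% of control counts (exact 95% binomial interval 0.232 to 0.236%) and 0.0224% of counts after acclimation (0.0217 to 0.0232%). They held 0.270% after acclimation and freezing (0.268 to 0.273%) and 0.333% in directly frozen leaves (0.330 to 0.336%). A few abundant members carried much of this. Unigene c113570.graph_c0 alone had 11652 of the members' 37911 counts after acclimation and freezing, and 2033 of their 36927 in the control. Another abundant member, c99518.graph_c0, went the other way, with 916 counts after acclimation and freezing and 3214 in the control. The 5 with the most counts outside acclimation made up 33.9% of the members' counts in the control, 40.8% after acclimation, 56.7% in leaves frozen after it, and 40.4% in directly frozen leaves. Without them, the other 53 members held 0.155% of control counts (0.153 to 0.157%), 0.0133% in acclimated leaves (0.0127 to 0.0139%), 0.117% in leaves frozen after acclimation (0.115 to 0.119%) and 0.199% in directly frozen leaves (0.196 to 0.201%). Leaves frozen after acclimation thus stood above the control for the 58 members together and below it for these 53, which leave out c113570.graph_c0.

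**Figure D2:**
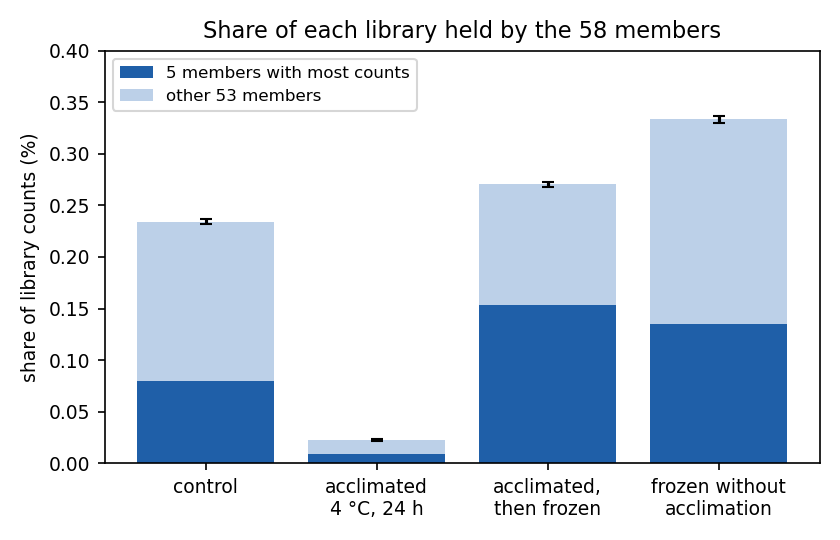
Share of each library's counts (%) held by the 58 members, with the 5 members of most counts in dark blue and the other 53 in light blue. Error bars are exact 95% binomial intervals on the total, from counting error only, and the totals are 0.234, 0.0224, 0.270 and 0.333% from left to right.

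The size of the acclimation difference varied widely among the members. On the FPKM scale the control was 4.06 to 370.8 times the acclimated level, with a median of 7.28 times. The corresponding median was 7.77 times for the acclimated and frozen library and 12.4 times for the directly frozen library. The smallest of the 3 ratios was between 4 and 5 in 19 members, between 5 and 10 in 32 and above 10 in 7. None of the 58 had a count of 0 after acclimation, but 10 had fewer than 10 counts there, and for these the ratio is loosely known. Ratios between libraries below were taken from counts scaled by TMM, which sets libraries on a common scale through the bulk of the unigenes, and a unigene was called where the whole exact 95% counting interval of its ratio lay beyond 2-fold. By that measure all 58 members were called lower after acclimation than in the control, where 4.02% of 78314 unigenes were. All 58 were called higher in acclimated and frozen than in acclimated leaves (3.46% of all unigenes), and 57 were called higher in directly frozen than in acclimated leaves (4.15%). These calls repeat the choice of members. For 26 members all 3 intervals lay beyond 4-fold.

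The deepest trough belonged to c100903.graph_c0 and c101437.graph_c0. Unigene c100903.graph_c0 had 771 counts in the control, 2 after acclimation, 233 in leaves frozen after it, and 646 in directly frozen leaves (35.4, 0.0954, 12.0 and 32.6 FPKM). Unigene c101437.graph_c0 had 302, 1, 168 and 376 counts in the same order (18.4, 0.0632, 11.5 and 25.2 FPKM). Both were almost undetected in the acclimated library alone, and both were less abundant after acclimation and freezing than in the control. Their log2 ratios of acclimated to control were -8.20 (-11.56 to -6.65) and -7.59 (-13.47 to -5.67), the wide intervals reflecting the 2 counts and the 1 count.

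The most abundant members were c100326.graph_c0 and c99518.graph_c0, and they differed in their level after acclimation and freezing. Unigene c100326.graph_c0 had 222.2 FPKM in the control, 34.4 FPKM in acclimated leaves, 235.8 FPKM in leaves frozen after acclimation, and 253.9 FPKM in directly frozen leaves. Outside acclimation its 3 levels were nearly equal, and it was the most even member of all by the ratio of highest to lowest. Unigene c99518.graph_c0 had 245.5, 13.5, 78.7 and 346.4 FPKM in that order. It was a little above the control level in directly frozen plants, where its log2 ratio to control was 0.33 (0.27 to 0.40), whereas after acclimation and freezing it was -1.54 (-1.65 to -1.44). The next most even member was a much scarcer one, c82296.graph_c0, with 11.2, 2.19, 9.48 and 10.7 FPKM.

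At the edges of the rule, c50065.graph_c0 was just inside the 4-fold limit with a smallest ratio of 4.06 (42, 6, 28 and 23 counts), and c114224.graph_c0 just outside with 3.99 (280, 31, 158 and 117 counts). For the level, c108202.graph_c0 was just inside with a smallest value of 5.01 FPKM and c70438.graph_c0 just outside with 4.94 FPKM. The border of the set is soft, since the log2 ratio of directly frozen to acclimated in c50065.graph_c0 had an interval of 0.50 to 3.42.

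The levels outside acclimation were read from the 3 comparisons that leave the acclimated library out, which the rule did not set against each other. It did require each of these 3 libraries to be at 5 FPKM or more and at least 4 times the acclimated level. The members' shares of calls, beside those of other unigenes, can therefore carry the choice, and how far they do was not tested. Only the first sets leaves frozen after a step at 4 °C against the control, since directly frozen plants had no such step. It asked whether the members stood at the control level in leaves frozen after acclimation. Each library came from its own plants, so no level was followed from 1 step to the next. The middle member stood near its control level and the spread was wide. The median log2 ratio of acclimated and frozen to control was 0.14 (quartiles -1.05 and 0.90, range -2.44 to 3.11), but it turned to -0.58 among the 13 members that also met an 8-fold limit against the acclimated library, of which 1 was called higher and 4 lower. The 13582 unigenes that were at 5 FPKM or more in the same 3 libraries had a median of 0.10 with quartiles of -0.49 and 0.70. Among the members 7 were called higher than the control (12.1%, against 6.98% of all 80023 unigenes and 12.8% of those at 5 FPKM), 10 were called lower (17.2%, against 5.15% and 6.80%) and 41 neither. With the acclimated and frozen library as a percent of control FPKM, the median was 103.1% and the range 17.2% to 807.9%.

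The 7 members called higher were 2.59 to 8.62 times the control by TMM-scaled counts, with a median of 2.99 times, and the pair farthest above it is described here. Unigene c96111.graph_c0 had 228 counts in the control, 32 after acclimation, 1637 in leaves frozen after it, and 1099 in directly frozen leaves (19.1, 2.79, 154.4 and 101.3 FPKM). Both frozen libraries were well above the control, with log2 ratios of 3.11 (2.91 to 3.32) after acclimation and 2.24 (2.04 to 2.46) without it. Unigene c113570.graph_c0 had 2033, 225, 11652 and 3517 counts (47.4, 5.45, 305.6 and 90.2 FPKM). Its level after acclimation and freezing stood apart from the other 3 libraries, at a log2 ratio to control of 2.79 (2.72 to 2.85), and it was the most abundant member in that library.

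The members called lower stood between their acclimated and control levels after acclimation and freezing. Unigene c113682.graph_c0 had 1724 counts in the control, 70 after acclimation, 263 in leaves frozen after it, and 551 in directly frozen leaves (63.4, 2.68, 10.9 and 22.3 FPKM). Unigene c112553.graph_c0 had 2476, 88, 399 and 1324 counts (78.6, 2.90, 14.3 and 46.2 FPKM). In both the order was control, frozen without acclimation, acclimated and frozen, acclimated, from high to low. Their log2 ratios of acclimated and frozen to control were -2.44 (-2.64 to -2.26) and -2.37 (-2.52 to -2.21), so the name low only at acclimation holds for them in the sense of the rule and not as a return to the control level. The 10 members called lower were more abundant in the control, their median being 71.0 FPKM, against 11.6 FPKM in the 7 called higher and 11.7 FPKM in the other 41. They also had a larger acclimation difference, the control being a median of 23.3 times the acclimated level, against 5.76 and 6.65 times. Both of these values use the control library that the call also uses, and a member with a small acclimation difference could not be called lower and still be at 4 times the acclimated level.

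**Figure D3:**
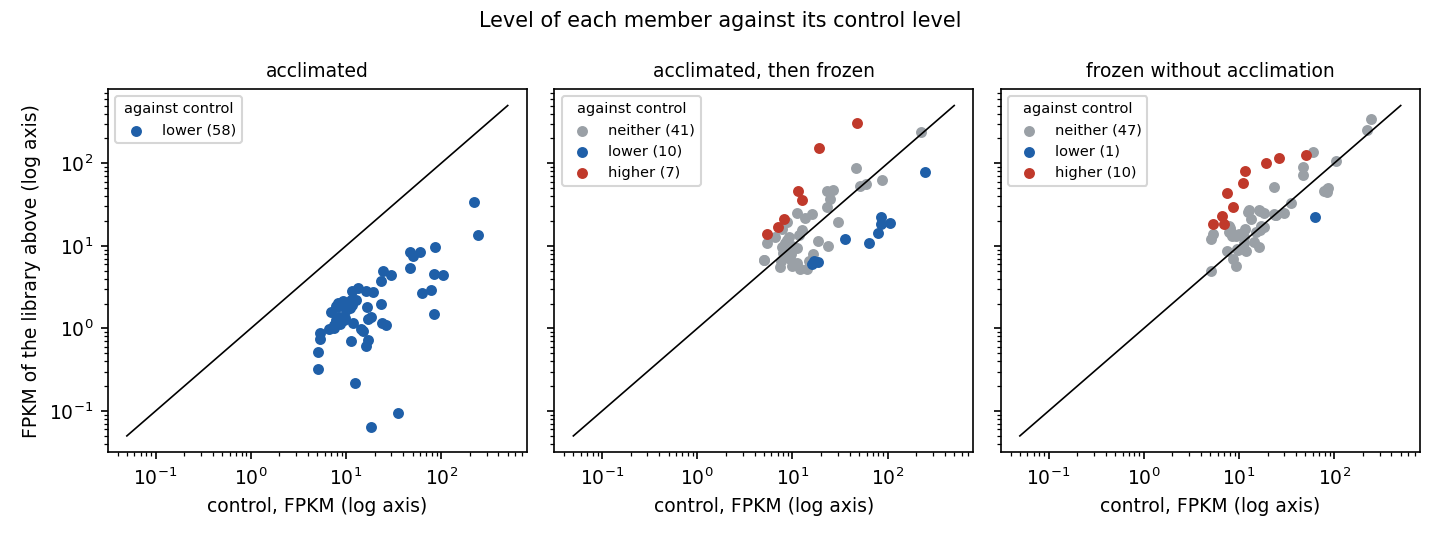
FPKM of each member in the acclimated (left), acclimated and frozen (middle) and directly frozen library (right) against its FPKM in the control (both log axes), with a line of equal levels, coloured by the call against the control. All 58 points lie under the line on the left, as chosen, while in the middle 7 were called higher and 10 lower, and on the right 10 were called higher and 1 lower.

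The second comparison asked how the members stood in directly frozen plants, which had no step at 4 °C. They leaned to the high side of the control, with a median log2 ratio of 0.30 (quartiles -0.24 and 0.97), where the unigenes at 5 FPKM or more in the same libraries had a median of -0.02 (-0.28 and 0.26). Of the members 10 were called higher (17.2%, against 3.03% of all 81889 unigenes and 3.66% of those at 5 FPKM), 1 was called lower (1.72%, against 1.27% and 1.83%) and 47 neither. The rule sets no upper limit on this library, so a member can be well above its control level and still qualify. Scaling by total counts, as FPKM does, moves every log2 ratio of this comparison up by 0.16 and gives 12 higher and 1 lower. The shares of other unigenes were taken by TMM only, so these counts have no matching share. This comparison shares the control library with the first.

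Unigene c103106.graph_c0 had 266 counts in the control, 43 after acclimation, 946 in leaves frozen after it, and 1677 in directly frozen leaves (11.6, 1.94, 46.3 and 80.3 FPKM). It was above its control level in both frozen libraries and highest without acclimation, at a log2 ratio to control of 2.63 (2.44 to 2.82). Unigene c95296.graph_c0 had 285, 37, 187 and 1522 counts (7.42, 1.00, 5.47 and 43.6 FPKM). Here the directly frozen library stood alone, at a log2 ratio to control of 2.39 (2.21 to 2.58), while after acclimation and freezing it was -0.34 (-0.62 to -0.07). The 1 member called lower was c113682.graph_c0, described above, at -1.67 (-1.81 to -1.53).

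The third comparison set the frozen libraries against each other. Members tended to be less abundant after acclimation and freezing than in directly frozen leaves, with a median log2 ratio of -0.41 (quartiles -0.88 and 0.12), against 0.09 (-0.39 and 0.59) for unigenes at 5 FPKM or more. In 38 members the ratio was below equal levels and in 20 above. Of the 58, 5 were called lower (8.62%, against 2.84% of all 81786 unigenes and 3.62% of those at 5 FPKM) and 1 higher (1.72%, against 3.42% and 8.33%). The counts depend on scaling: total counts move these log2 ratios by -0.26 and give 13 lower and 1 higher, and median-of-ratios factors move them by 0.10 and give 5 lower and 2 higher. Other unigenes shift by the same amounts, and their shares were taken by TMM only, so these counts have no matching share. The median of the members kept its sign under each scaling, at -0.67 and -0.31.

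Unigene c110872.graph_c0 showed the lower case at high abundance, with 1675 counts in the control, 67 after acclimation, 266 in leaves frozen after it, and 1555 in directly frozen leaves (105.3, 4.38, 18.8 and 107.5 FPKM). The control and the directly frozen library were nearly alike, and prior acclimation went with a level between theirs and the acclimated one, at a log2 ratio between the frozen libraries of -2.25 (-2.45 to -2.07). For c95296.graph_c0 that ratio was -2.73 (-2.96 to -2.51). The 1 member called higher was c113570.graph_c0, at 2.02 (1.97 to 2.08).

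**Figure D4:**
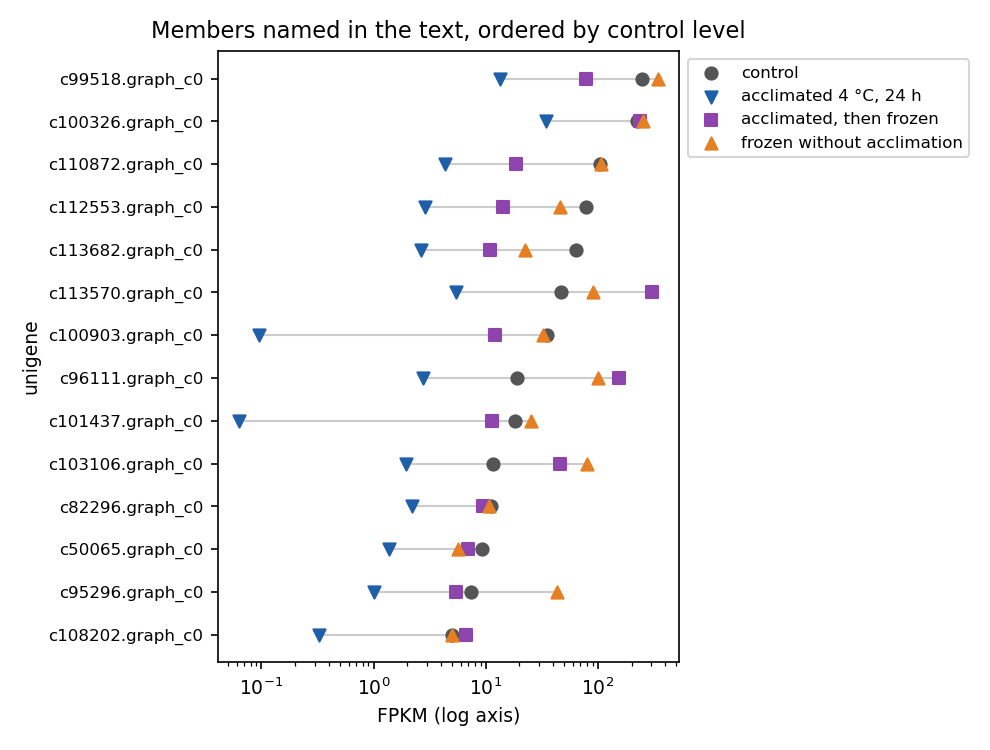
FPKM (log axis) of the members named above in each of the 4 libraries, 1 row per unigene in order of control level. The acclimated level is the leftmost in each row, and the purple squares of the acclimated and frozen library lie near the control for c100326.graph_c0 and c82296.graph_c0, far above it for c113570.graph_c0 and c96111.graph_c0, and far below it for c110872.graph_c0 and c113682.graph_c0.

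Outside acclimation the members were spread more widely than the unigenes at 5 FPKM or more, a difference given here as a description. The highest of the 3 libraries was a median of 2.32 times the lowest in members and 1.68 times among the 13582 unigenes at 5 FPKM or more, and it was within 2-fold in 19 members (32.8%) against 65.9% of those unigenes. By FPKM the commonest order, in 21 members, was control lowest and directly frozen highest, and the next, in 16, was acclimated and frozen lowest and control highest. Which library was highest depended on scaling. Direct freezing gave the highest level in 30 members by FPKM, 22 by TMM and 18 by median-of-ratios factors, the control in 18, 20 and 22, and acclimation with freezing in 10, 16 and 18. In 35 members (60.3%) none of the 3 comparisons was called, against 77.1% of the unigenes at 5 FPKM or more and 82.3% of the 65218 unigenes compared in all 3.

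To describe the acclimated and frozen level without choosing on it, the choice was made again without that library. How unusual such a level is cannot be read from this, since the other libraries still made the choice. There were 380 unigenes at 5 FPKM or more in both the control and the directly frozen library and at least 4 times the acclimated level in each. Their median was 15.2 FPKM in the control, 1.96 FPKM in acclimated leaves, 3.63 FPKM in leaves frozen after acclimation, and 14.7 FPKM in directly frozen leaves. In the acclimated and frozen library 71 of them (18.7%) were at least 4 times the acclimated level, the 58 members and 13 under 5 FPKM, while 112 were below the acclimated level. That the members lie at the upper end of the 380 follows from the rule, and the count to read is that 248 of the 380 were under 2 times the acclimated level when freezing followed. With the directly frozen library left out of the choice in the same way, 62 unigenes were chosen, and 60 of them (96.8%) were at least 4 times the acclimated level in it. With the control left out 613 were chosen, of which 100 (16.3%) were at least 4 times the acclimated level in the control, where their median was 2.69 FPKM. The acclimated library enters each of these choices and each ratio, so a chance low value there favours a higher level in any library set against it. All 58 members are in each chosen set by the rule, so each percent depends largely on how many unigenes were chosen. No rate for unigenes chosen without these limits is given beside them.

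**Figure D5:**
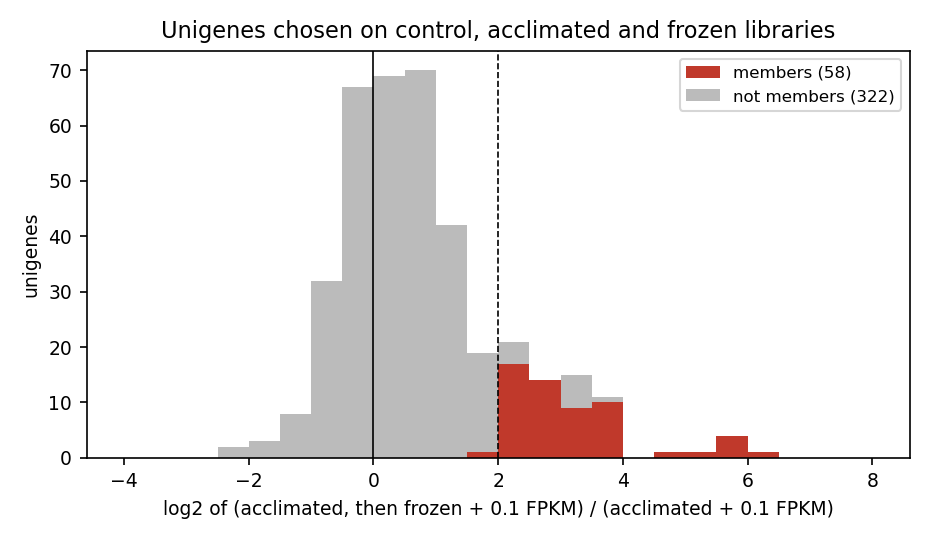
The 380 unigenes chosen on the control, acclimated and directly frozen libraries, by the log2 ratio of the acclimated and frozen to the acclimated library after adding 0.1 FPKM to each (horizontal axis), with the number of unigenes on the vertical axis. The solid line marks equal levels and the dashed line 4-fold. The 58 members, in red, lie at the right as the rule requires. The added 0.1 FPKM puts c113682.graph_c0, at 1.98, just left of the dashed line. The 13 others that passed 4-fold but were under 5 FPKM did so without that addition, and not all of them reach the dashed line. Most of the 322 that are not members lie left of it.

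Length was not used by the rule and is also given as a description. The length implied by count and FPKM had a median of 1052 bases (quartiles 625 and 1648), against 1266 bases (836 and 1852) for the unigenes at 5 FPKM or more and 407 bases for all unigenes. Each member came from a different component of the assembly, as numbered in its identifier. For 8 members (13.8%, against 17.2% of unigenes at 5 FPKM or more) the component held other unigenes, 9 in all, which may be related sequences among which reads can be split. Of these 9 partners 7 were under 5 FPKM in at least 1 of the other 3 libraries. Among these 7, c112771.graph_c1 is named here with the remaining 2, after their values were seen. In c112771.graph_c1 the control had 9.41 FPKM, acclimated leaves 6.38 FPKM, acclimated and frozen leaves 3.74 FPKM, and directly frozen leaves 10.01 FPKM. This partner was lowest after acclimation and freezing, while its member c112771.graph_c0 was lowest after acclimation, at 1.28 FPKM. Unigene c116020.graph_c1 had 68.6 FPKM in the control, 18.2 FPKM in acclimated leaves, 27.4 FPKM in leaves frozen after acclimation, and 60.8 FPKM in directly frozen leaves, beside 84.5, 4.55, 22.4 and 45.1 FPKM in the member c116020.graph_c0, so both were lowest after acclimation. Unigene c115556.graph_c1 ran the other way, with 6.80, 22.8, 20.2 and 7.37 FPKM beside 26.5, 1.09, 47.5 and 116.4 FPKM in the member c115556.graph_c0. In that component the partner was the more abundant of the pair in the acclimated library and the less abundant in the other 3.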

How the data were processed

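RNA-seq of leaf total RNA gave 4 libraries, 1 per treatment. The deposited counts are whole numbers for each unigene and sum to 15781435 in the control, 15179341 in the acclimated, 14024558 in the acclimated and frozen and 14345704 in the directly frozen library. Each FPKM the authors give is the count over library total and a length common to the libraries (largest relative difference 1.79e-08). Per the submitters' processing notes, Bowtie 0.12.2, Cufflinks and the mouse build mm8 are named, with no role. The assembler, counting rule, filters and use of strand are not given in the sources used here.

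Libraries were scaled by TMM (edgeR 4.0.16, factors 0.993, 0.976, 0.928 and 1.11 in the order above). Log2 ratios used a prior count of 0.5, and their intervals are exact (Clopper-Pearson) at 95% (scipy 1.17.1), from counting error only. No test between treatments was run, because each has 1 library. Alternatives varied the floor, the fold limit, the scaling, the calling rule, the prior count and the count minimum. The members and the rules were chosen with earlier results of these data known. Unigenes named are those most abundant, deepest, most even or at the limits of the rule, and up to 2 higher and 2 lower per comparison with the interval bound farthest from equal levels.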

Additional observations from a re-analysis of the deposited data

Results flagged for a closer look

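For 2 members the same step was called in opposite directions in the 2 states of the plants, with both counting intervals wholly beyond 2-fold. Each call rests on 1 library a treatment, and the difference was not tested. Opposite directions short of that limit were commoner: all 58 were higher when freezing followed acclimation, by the rule, while 24 were below the control after direct freezing, 16 of them with the whole interval below equal levels. All 58 were likewise lower after acclimation alone, while 20 were higher in acclimated and frozen than in directly frozen leaves, 11 of them by the whole interval. Freezing without acclimation left c113682.graph_c0 lower than the control, at a log2 ratio of -1.67, whereas freezing after acclimation left it higher than the acclimated library, at 2.09. Acclimation left c113570.graph_c0 lower in unfrozen leaves, at a log2 ratio of -3.09, whereas among frozen leaves the acclimated plants had the higher level, at 2.02. In each case 1 of the 2 ratios is against the acclimated library, which the choice of members used. The counts of opposite directions therefore only restate the other ratio. For direct freezing against the control, 1.72% of members were called lower, against 1.27% of all unigenes. Between the frozen libraries, 1.72% were called higher, against 3.42%. Shares of all unigenes were not taken for the directions short of the 2-fold limit.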

How the results depend on the processing

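The number of members was 55 under TMM-scaled and 55 under median-of-ratios-scaled FPKM, 54 of them shared with the 58 in each case, and 57 with at least 100 counts. It was 234 with a floor of 1 FPKM, 27 with 10 FPKM, 102 with a 3-fold limit, 13 with an 8-fold limit and 29 with 1 FPKM added. It was 135 where all 3 intervals had to lie beyond 2-fold and 26 beyond 4-fold. For acclimated and frozen against control, 4 were called higher and 7 lower of the 27 members with the floor of 10 FPKM. Of the 13 with the 8-fold limit, 1 was called higher and 4 lower, at a median log2 ratio of -0.58. An interval only excluding equal levels gave 27 higher and 22 lower, and a point ratio of 2-fold gave 14 higher and 15 lower. For freezing without acclimation against control, the floor of 10 FPKM gave 5 higher, the 8-fold limit 1 higher and 0 lower, the interval excluding equal levels 28 higher and 16 lower, and the point ratio 14 higher and 2 lower. Between the frozen libraries, total counts gave 13 lower, median-of-ratios factors 2 higher, the floor of 10 FPKM 3 lower and the 8-fold limit 1 lower at a median of -0.77. There the interval excluding equal levels gave 11 higher and 31 lower, and the point ratio 3 higher and 11 lower. The share of all unigenes was taken only by TMM and the interval beyond 2-fold. Members' counts under the other scalings and calling rules therefore have no general rate beside them. None was taken at the floor of 10 FPKM or the 8-fold limit either. The members' share of the control, acclimated, acclimated and frozen, and directly frozen library was 0.190, 0.0180, 0.235 and 0.269% with the floor of 10 FPKM, and 0.0597, 0.00318, 0.117 and 0.101% with the 8-fold limit. Stricter limits leave fewer members by construction. No paired analysis was possible because each treatment has 1 library, which also leaves no replicate to omit. Depth limits the acclimated level most, since 10 members had fewer than 10 counts there.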

Other observations

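The same rule turned to each other library in place of the acclimated one found 192 unigenes low only in the control, 32 low only after acclimation and freezing and 10 low only after freezing without acclimation. With the direction reversed, 53 unigenes were at least 5 FPKM in the acclimated library and at least 4 times every other library, against 92 for the control, 131 for acclimation and freezing and 118 for freezing without acclimation. These are counts from 1 library each, on the FPKM scale.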
